A study of Mus musculus with 7 samples.

Results

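The collagen chain genes are the genes whose mouse symbol has the form Col, digits, a, digits, so they were chosen by name and not by any measured value. Of the 22027 genes in the count table, 44 had such a symbol, and 29 of these 44 had a mean of 1 CPM or more over the 7 libraries (CPM, counts per 1000000 counts of the library, after TMM scaling of the totals). The libraries were messenger RNA from left ventricle of C57BL/6J mice aged 12 months. In 4 of them the genotype label is G3, which the series describes as telomerase-deficient, a state in which telomeres shorten over generations. The other 3 are labelled G3 PGC1aOE, the same telomerase-deficient kind of mouse with PGC1alpha overexpressed, so that both groups carry the telomerase deficiency and no group has intact telomerase. The altered telomerase gene, the promoter that drives the overexpression and the cells in which it acts were not given in the sources used here. Each sample also carries a code, which reads G2 in libraries 1 and 3 of G3 and library 1 of G3 PGC1aOE. It reads G3 in the rest. A number follows, which is below 80 in G3 1 to 3 and G3 PGC1aOE 1 and above 80 in the other libraries. The letters that come first in the code are PC in every library labelled G3 PGC1aOE. Among the libraries labelled G3 these letters differ, with P in library 4, none in library 3 and C in the others. What the letters stand for was not given in the sources used here. They entered no fit, and their part in the differences was not tested.

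Total counts ran from 10106705 to 16056740 per library. Ppargc1a, the gene of PGC1alpha, measured 94.6, 56.7, 118 and 86.6 CPM in G3 libraries 1 to 4 and 103, 43.9 and 58.03 CPM in G3 PGC1aOE libraries 1 to 3, and the groups overlapped, with a log2 fold change of −0.38 (95% interval −1.12 to 0.36, edgeR adjusted p = 0.847), so no higher level was measured under the overexpression label. Every direction below therefore rests on the label alone, and the 3 libraries are called the libraries labelled G3 PGC1aOE. Ventricular muscle markers such as Myh6, Tnnt2 and Myl2 were present in every library, and the summed level of the 10 cardiomyocyte markers ran from 62267 to 94447 CPM.

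Collagens are matrix proteins built from chains that wind in trimers into a triple helix. Fibrillar chains are those of types I, II, III, V, XI, XXIV and XXVII. In the heart the tension-bearing fibrils between muscle cells are mainly of types I and III, made mostly by fibroblasts. Type IV chains form the sheet-like network of basement membranes around muscle cells and capillaries. Fibril-associated chains such as types XII and XIV sit on the surface of fibrils. The remaining chains form beaded filaments (type VI), hexagonal networks (types VIII and X), proteins of the basement membrane zone that carry sugar chains (types XV and XVIII), anchoring fibrils (type VII) or membrane-spanning proteins (types XIII, XVII, XXIII and XXV). Amounts of types I and III in the ventricle are the usual measure of fibrosis.

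The sequences before the start sites show how differently these genes begin. RefSeq (build GRCm38.p6) gave promoter sequences for 35 of the 44 genes, in 38 windows, and the 250 bases before each annotated start were searched on both strands for 3 short motifs. The first is the CCAAT box, spelled by its name. The second, TATAAA, is the usual form of the TATA box. The last, GGGCGG, is known as the GC box. The motifs do not overlap one another except where copies of the last adjoin. The 4 windows below belong to genes whose 2 groups of libraries did not overlap, and the letters found, on either strand, are in capitals, so that CCGCCC marks the last of the motifs read on the other strand.
Col3a1, chr1:45311288-45311537, plus strand: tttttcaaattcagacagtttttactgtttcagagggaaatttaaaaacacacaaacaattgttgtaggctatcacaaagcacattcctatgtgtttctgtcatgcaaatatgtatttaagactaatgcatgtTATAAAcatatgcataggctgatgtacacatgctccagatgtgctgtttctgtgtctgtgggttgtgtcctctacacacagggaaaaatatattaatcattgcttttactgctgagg
Col1a2, chr6:4505368-4505617, plus strand: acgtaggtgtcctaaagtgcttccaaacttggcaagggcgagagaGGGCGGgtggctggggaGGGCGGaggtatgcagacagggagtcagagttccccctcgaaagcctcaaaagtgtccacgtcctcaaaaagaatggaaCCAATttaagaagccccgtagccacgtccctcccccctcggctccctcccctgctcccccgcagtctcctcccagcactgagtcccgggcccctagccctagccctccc
Col4a6, chrX:141474077-141474326, minus strand: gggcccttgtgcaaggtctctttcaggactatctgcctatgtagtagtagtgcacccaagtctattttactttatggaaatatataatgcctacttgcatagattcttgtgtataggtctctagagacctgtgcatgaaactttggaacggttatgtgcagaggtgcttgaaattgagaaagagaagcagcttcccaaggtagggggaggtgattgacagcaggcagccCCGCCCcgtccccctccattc
Col8a2, chr4:126286544-126286793, plus strand: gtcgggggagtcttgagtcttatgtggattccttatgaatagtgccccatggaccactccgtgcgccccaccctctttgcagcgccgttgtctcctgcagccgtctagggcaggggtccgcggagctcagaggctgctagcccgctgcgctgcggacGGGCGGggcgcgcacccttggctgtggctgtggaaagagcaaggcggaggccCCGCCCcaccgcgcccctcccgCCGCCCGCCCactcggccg
The Col3a1 window is 35.2% G and C and holds a TATAAA, at position −117 from the start site, and neither of the other letters. Whether that TATAAA acts as a TATA box was not tested. By contrast the Col8a2 window is 70.0% G and C and holds 4 copies of GGGCGG. In the Col1a2 window there are 1 CCAAT and 2 GGGCGG. Col4a6 has a single GGGCGG close to its start. Among all 32851 windows of this length in the table, 33.8% held CCAAT, 12.4% TATAAA and 32.7% GGGCGG, and among the 38 collagen windows 13, 5 and 22 held them.

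The 2 chains of the common basement membrane collagen share a start. Col4a1 and Col4a2 lie head to head, and their annotated starts are 21 bases apart on opposite strands, so that their first 22 bases pair with each other at chr8:11312805-11312826. The shared stretch, read on the plus strand with the GGGCGG in capitals, is shown because the ratio of these 2 messages is described further on.
Col4a1 and Col4a2, shared start: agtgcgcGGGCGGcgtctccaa
Col4a5 and Col4a6 also lie head to head, with starts 1343 bases apart. In RefSeq gene order Col3a1 adjoins Col5a2, Col6a2 adjoins Col6a1 and Col4a4 adjoins Col4a3. Whether reads from the overlapping ends of Col4a1 and Col4a2 were told apart in these counts is not known. The labels name no kit or counting that marks strand.

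The single most abundant collagen message per length over the 7 libraries was that of the basement membrane chain Col4a2. On the deposited FPKM scale (counts scaled to gene length and to library total), the mean over the 7 libraries was 67.5 for Col4a2, 52.97 for Col3a1, 49.6 for Col4a1, 38.7 for Col1a2 and 37.5 for Col1a1. In G3 alone the order differed: Col4a2 had 74.8 ± 18.1 FPKM (SD, n = 4), Col4a1 50.2 ± 10.7, Col3a1 34.3 ± 5.63, Col1a2 30.5 ± 9.37 and Col1a1 29.1 ± 6.13, and the last 3 did not differ beyond their spread. In the libraries labelled G3 PGC1aOE, Col3a1 came first at 77.8 ± 7.85 FPKM (SD, n = 3), ahead of Col4a2 at 57.8 ± 24.6. Next in the overall order stood the type VI chain Col6a1 at 22.1 FPKM, Col15a1 at 15.99 and Col6a2 at 10.99. The gene lengths behind these FPKM are short: they lay within 1 bp of the mean length of all annotated transcripts for 31 of the 44 genes, fragments included. For Col1a1 that length is 1781 bp beside 5930 bp for its longest coding transcript, and for Col8a1 both are 5108 bp. On the longest coding transcript, Col4a2 had 27.7, Col4a1 26.9, Col3a1 17.6, Col1a2 16.6 and Col6a1 13.7 CPM per kilobase, so Col4a1 passed Col3a1 and Col6a1 passed Col1a1 (11.3). Both are lengths of annotated models, and the transcripts used in these hearts were not measured.

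**Figure D1:**
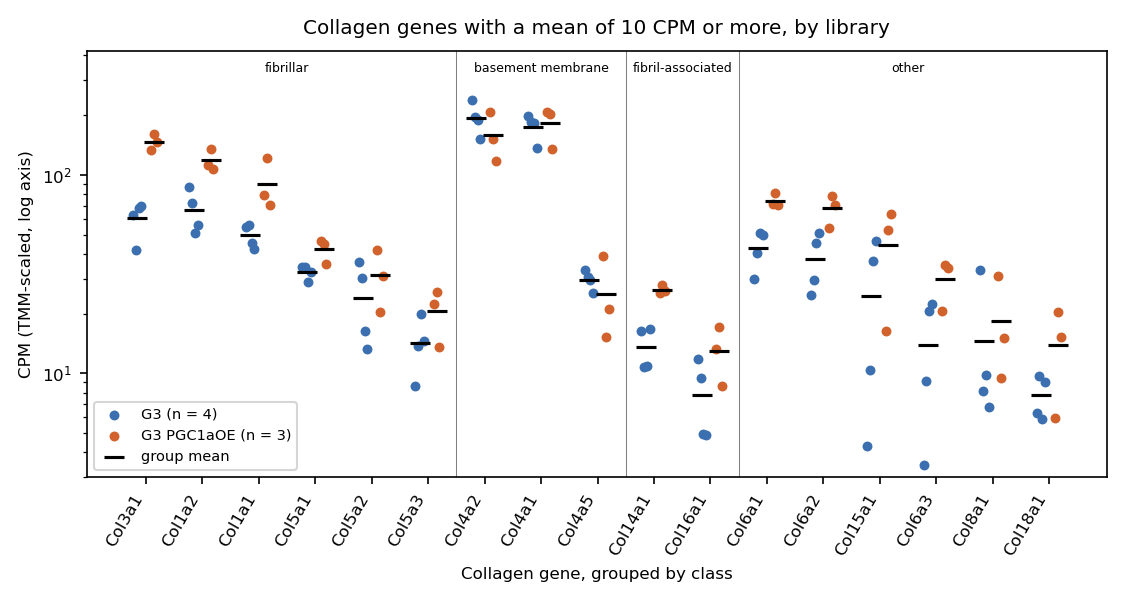
CPM on a log axis (TMM-scaled) of the 17 collagen genes with a mean of 10 CPM or more, 1 point per library, in 4 G3 and 3 G3 PGC1aOE libraries, with black bars for the group means and vertical lines between classes. Col3a1, Col1a2, Col1a1, Col5a1, Col14a1, Col6a1 and Col6a2 show no overlap between the groups, and Col15a1, Col6a3 and Col8a1 are spread widely within G3.

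Fibrillar chains made up a larger part of collagen message in the libraries labelled G3 PGC1aOE. Their share of summed collagen FPKM was 39.1, 37.7, 34.97 and 37.02% in G3 libraries 1 to 4 and 47.01, 51.3 and 49.1% in G3 PGC1aOE libraries 1 to 3. The share of the 6 type IV chains was 46.99, 45.8, 42.9 and 36.3% in G3 and 34.1, 24.8 and 23.01% in the libraries labelled G3 PGC1aOE. Neither share overlapped between the groups, and the type IV share also ran lower in G3 4 than in the other libraries labelled G3. As group means the fibrillar share was 37.2 ± 1.73% (SD, n = 4) and 49.1 ± 2.12% (SD, n = 3), a gap larger than the spread in either group. On the longest coding transcript it was 30.4 ± 1.63% (SD, n = 4) and 39.9 ± 1.84% (SD, n = 3). Summed over all 44 genes, collagen message was 913, 825, 843 and 779.7 CPM in G3 and 1169, 1260.2 and 1038 CPM in the libraries labelled G3 PGC1aOE. The summed type IV level, by contrast, was 474, 419, 405 and 320.4 CPM and 463, 382 and 291 CPM, and overlapped. Shares and sums over the members are given as descriptions, with no test. In bulk tissue, more cells of a type and more RNA per cell cannot be told apart.

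**Figure D2:**
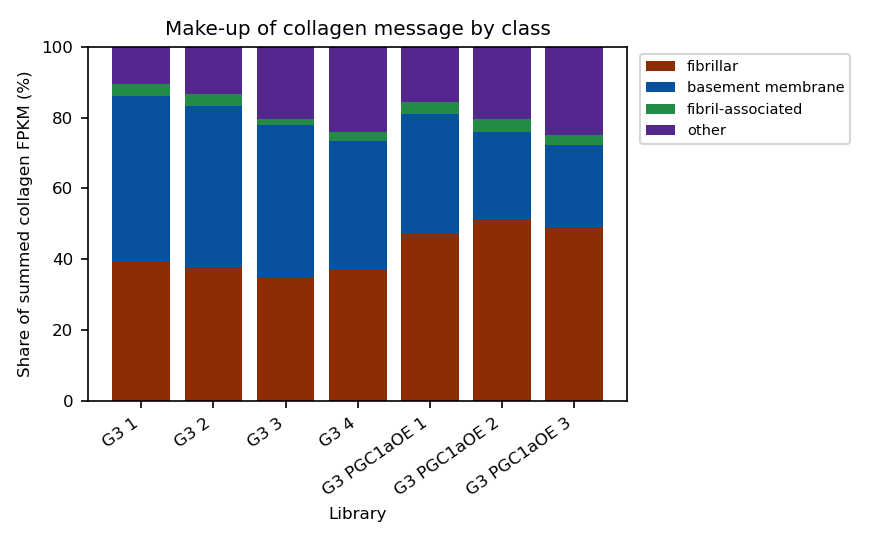
Share of summed collagen FPKM (%) held by fibrillar, basement membrane, fibril-associated and other collagen genes, as stacked bars from 0 to 100% in each of the 7 libraries. The fibrillar part lies between 34.97% and 39.1% in G3 and between 47.01% and 51.3% in the libraries labelled G3 PGC1aOE.

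No collagen gene passed the test between the groups, and those that differed at an unadjusted p under 0.05 were all higher in the libraries labelled G3 PGC1aOE. The comparison asks which messages differ in telomerase-deficient hearts between the libraries with and without the label of PGC1alpha overexpression. Of the 44 genes, 30 had enough counts to be tested with edgeR's quasi-likelihood test across 12674 genes, and 0 passed at a Benjamini-Hochberg adjusted p of 0.05, as did 0 of all genes tested (0%). At an unadjusted p under 0.05, 12 of the 30 were higher beside 3.05% of all genes tested, and 0 were lower beside 1.27%. Over all genes 548 had such a p, or 4.32%. That count depended on single libraries: it was 2464 without G3 PGC1aOE 1, 231 without G3 PGC1aOE 2, 343 without G3 PGC1aOE 3 and 331 without G3 3, with 9 to 12 collagen genes higher as each library was left out. These were not always the same genes: 7 of the 12 (Col3a1, Col1a1, Col1a2, Col14a1, Col4a6, Col6a1 and Col6a2) stayed under that p under every alternative, while 8 of the 12 did without G3 PGC1aOE 3 and 9 of the 12 without G3 1 or G3 PGC1aOE 2. DESeq2, as another tool, called 3 genes in all (0.0237% of 12665), 1 of them a collagen gene (Col3a1), and limma voom called 0. In 10 of the 30 every library labelled G3 PGC1aOE stood above every G3 library, beside 2.19% of all genes tested, and 0 stood below, beside 2.4%. The filter on low counts can keep a gene through the group where it is higher. Of the 17 genes with a mean of 10 CPM or more, 7 were higher at an unadjusted p under 0.05, and 7 did not overlap. That mean is over all libraries, so it too can be reached through the higher group. Col18a1 and Col16a1 reached it with G3 means of 7.76 and 7.78 CPM. Shares over all genes at that level were not computed, so these counts have none beside them. The log2 fold change was above 0 in 27 of the 30 (50.9% of all genes), with a median of 0.77 beside 0.0076 over all genes tested. By class the median was 0.75 for 8 fibrillar, 0.52 for 6 basement membrane, 0.74 for 5 fibril-associated and 0.80 for 11 other genes.

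**Figure D3:**
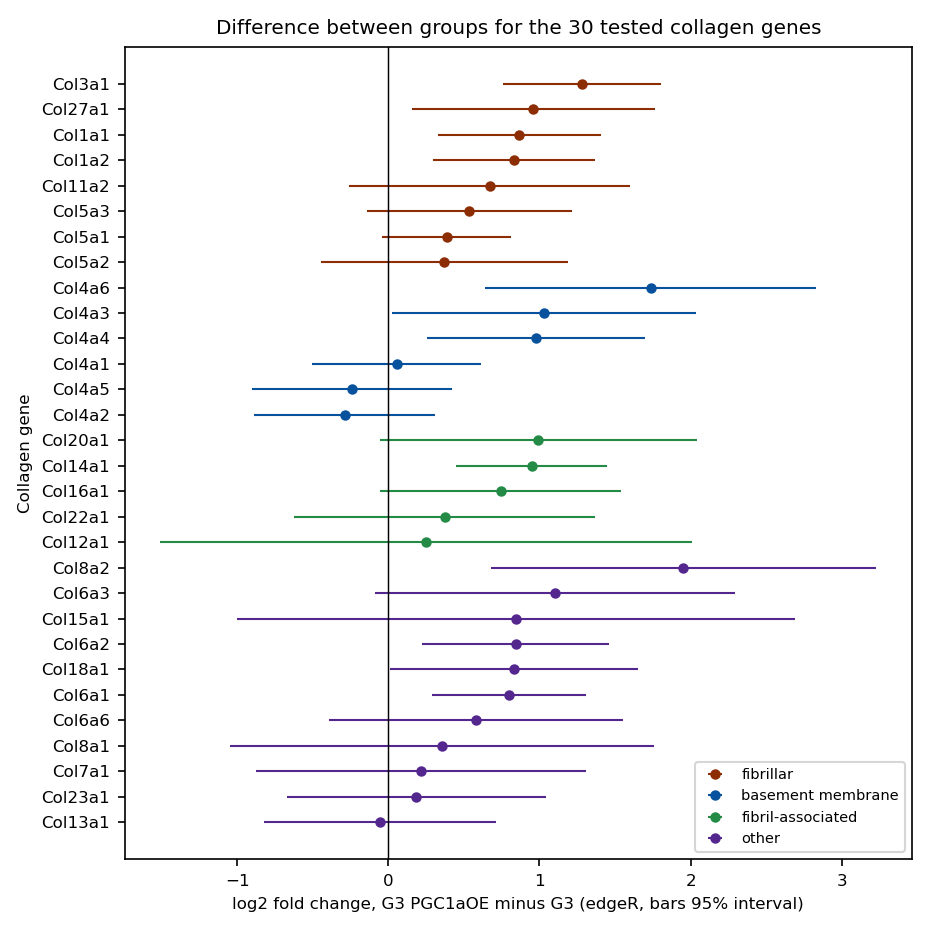
Log2 fold change, G3 PGC1aOE minus G3, of the 30 tested collagen genes with 95% intervals from the edgeR fit, coloured by class, with a vertical line at 0. Intervals of 12 genes lie wholly above 0 and none lies wholly below, and Col4a1, Col4a2, Col4a5 and Col13a1 sit close to or under 0.

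Col3a1 (ENSMUSG00000026043), the chain of type III collagen that forms fine fibrils with type I, had the smallest p of the collagen genes. It measured 62.7, 41.6, 68.4 and 69.3 CPM in G3 libraries 1 to 4 and 134, 161 and 147 CPM in G3 PGC1aOE libraries 1 to 3, from 688, 564, 763 and 923 counts and 1731, 2207 and 1996 counts. The lowest library labelled G3 PGC1aOE stood well above the highest G3 library. Its log2 fold change was 1.28 (SE 0.24, 95% interval 0.76 to 1.81, edgeR unadjusted p = 0.000246, adjusted p = 0.847). DESeq2 gave 1.28 with an adjusted p of 0.00293. Its neighbour Col5a2 (ENSMUSG00000026042), a type V chain that sets fibril diameter, overlapped between the groups: it had 36.4, 30.3, 16.4 and 13.3 CPM in G3 and 42.02, 20.4 and 31.04 CPM in the libraries labelled G3 PGC1aOE, with the high libraries G3 1, G3 2 and G3 PGC1aOE 1. The log2 fold change of Col5a2 was 0.37 (95% interval −0.45 to 1.19, edgeR unadjusted p = 0.338), and 0.0912 without G3 PGC1aOE 1 and 0.64 without G3 1. The difference between the 2 fold changes was not tested.

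Both chains of type I collagen, the main fibrillar collagen of the heart, were higher at an unadjusted p under 0.05. Col1a1 (ENSMUSG00000001506) measured 54.7, 55.7, 45.6 and 42.5 CPM in G3 and 78.9, 122 and 70.2 CPM in the libraries labelled G3 PGC1aOE, where G3 PGC1aOE 2 was the highest by far. Col1a2 (ENSMUSG00000029661) had 86.7, 72.1, 51.2 and 55.7 CPM and 112, 136 and 107 CPM. In neither gene did the groups overlap. Log2 fold changes were 0.87 with an SE of 0.24 for Col1a1 (edgeR unadjusted p = 0.00482) and 0.83 with an SE of 0.24 for Col1a2 (edgeR unadjusted p = 0.00602).

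The minor fibrillar chains were less uniform. Col5a1 (ENSMUSG00000026837), the partner of Col5a2 in type V collagen, stood at 34.2, 34.3, 28.8 and 32.4 CPM and 46.4, 45.1 and 35.4 CPM, a narrow separation with a log2 fold change of 0.39 (95% interval −0.0423 to 0.81). Col5a3 (ENSMUSG00000004098), a further type V chain, overlapped at 8.65, 13.7, 19.99 and 14.5 CPM in G3 and 22.5, 25.7 and 13.6 CPM in the libraries labelled G3 PGC1aOE, with a log2 fold change of 0.54 (0.34 without G3 PGC1aOE 2). For Col27a1 (ENSMUSG00000045672), a fibrillar chain best known from cartilage, values were 2.55, 4.72, 4.93 and 6.23 CPM and 5.66, 13.6 and 7.72 CPM, and only G3 PGC1aOE 1 fell within the G3 range. Its log2 fold change was 0.96 (SE 0.36, edgeR unadjusted p = 0.0239), and 0.53 without G3 PGC1aOE 2. Col11a2, a type XI chain, ran from 1.46 to 4.302 CPM in G3 and from 3.02 to 6.33 CPM in the libraries labelled G3 PGC1aOE. Among fibrillar genes that could not be tested, Col2a1, the main cartilage collagen, had 10 counts over the 7 libraries, Col24a1 had 11 and Col11a1 had 36.

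Among fibril-associated chains, Col14a1 was higher at an unadjusted p under 0.05. Col14a1 (ENSMUSG00000022371), which binds the surface of type I fibrils, measured 16.3, 10.7, 10.9 and 16.7 CPM in G3 and 25.4, 27.8 and 25.9 CPM in the libraries labelled G3 PGC1aOE. These 3 libraries lay close together and above all 4 G3 libraries, with group means of 13.7 ± 3.28 CPM (SD, n = 4) and 26.4 ± 1.25 CPM (SD, n = 3). The log2 fold change was 0.95 (SE 0.23, edgeR unadjusted p = 0.00164, adjusted p = 0.847). Col16a1 (ENSMUSG00000040690), which is found near fibrils and basement membranes, overlapped at 11.8, 9.45, 4.93 and 4.88 CPM and 13.3, 17.1 and 8.61 CPM, with a log2 fold change of 0.74 (95% interval −0.0516 to 1.54). Col12a1, a close relative of Col14a1, was spread over both groups: from G3 1 to G3 4 it had 3.55, 5.98, 0.269 and 0.901 CPM, and in the libraries labelled G3 PGC1aOE 2.64, 2.11 and 4.85 CPM. Its log2 fold change of 0.25 had an interval from −1.51 to 2.01 and turned to −0.18 without G3 PGC1aOE 3, −0.13 without G3 3 and −0.0383 without G3 4. Col20a1 and Col22a1 had means of 1.905 and 0.994 CPM and overlapped between the groups. The 4 untested members, Col9a1, Col9a2, Col9a3 and Col19a1, had between 2 and 40 counts over all libraries.

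The type IV chains fell into abundant chains, with fold changes near or under 0, and scarce chains, with fold changes above 0. The difference between the chains was not tested. Col4a1 (ENSMUSG00000031502) and Col4a2 (ENSMUSG00000031503), the chains of nearly all basement membranes, overlapped between the groups. Col4a1 had 197, 184, 183 and 136 CPM in G3 and 208, 202 and 135 CPM in the libraries labelled G3 PGC1aOE, and its log2 fold change of 0.0551 (95% interval −0.50 to 0.61) changed sign in 8 of 20 alternatives. Col4a2 had 239, 196, 189 and 152 CPM and 207, 152 and 118 CPM, a log2 fold change of −0.29 (95% interval −0.89 to 0.31), with −0.53 without G3 PGC1aOE 1 and −0.12 without G3 PGC1aOE 3. Col4a5 (ENSMUSG00000031274), an X-linked chain of kidney and muscle basement membranes, measured 33.2, 30.7, 29.5 and 25.3 CPM and 38.9, 15.3 and 21.1 CPM, with G3 PGC1aOE 1 highest and the other libraries labelled G3 PGC1aOE below all of G3. Its log2 fold change was −0.24, and without G3 PGC1aOE 1 it was −0.71, the only collagen gene lower at an unadjusted p under 0.05 in that setting, and without G3 PGC1aOE 2 it was 0.0168.

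The scarce chains Col4a6, Col4a4 and Col4a3 were higher at an unadjusted p under 0.05. Col4a6 (ENSMUSG00000031273), found with Col4a5 around smooth muscle, had 1.09, 1.55, 0.538 and 0.376 CPM in G3 and 2.02, 2.76 and 4.19 CPM in the libraries labelled G3 PGC1aOE, from 12, 21, 6 and 5 counts and 26, 38 and 57 counts. The groups did not overlap, and the log2 fold change was 1.74 (SE 0.49, edgeR unadjusted p = 0.00521). For Col4a4 (ENSMUSG00000067158), a chain of specialised basement membranes such as that of the kidney filter, values were 3.01, 4.503, 2.42 and 4.96 CPM and 5.12, 7.42 and 9.56 CPM, which did not overlap either (log2 fold change 0.98, SE 0.33, edgeR unadjusted p = 0.0128). Col4a3 (ENSMUSG00000079465), the neighbour and partner of Col4a4, had 0.638, 1.77, 0.717 and 1.35 CPM and 1.395, 2.55 and 3.02 CPM, with G3 PGC1aOE 1 inside the G3 range (log2 fold change 1.03, SE 0.46, edgeR unadjusted p = 0.0461). Without G3 PGC1aOE 3 the edgeR unadjusted p was 0.0735 for Col4a4 and 0.174 for Col4a3, whose p was also above 0.05 without G3 1, G3 3, G3 4 or G3 PGC1aOE 2. Counts of Col4a6 and Col4a3 were near the filter, which can keep a gene through its higher group, and the means of the 3 were 1.79, 5.28 and 1.63 CPM, beside 178 CPM for Col4a1.

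Type VI collagen, whose 3 main chains join into beaded filaments next to cells, was higher in Col6a1 and Col6a2 at an unadjusted p under 0.05. Col6a1 (ENSMUSG00000001119) measured 29.97, 40.3, 50.7 and 49.9 CPM in G3 and 71.1, 81.2 and 70.5 CPM in the libraries labelled G3 PGC1aOE. Col6a2 (ENSMUSG00000020241) had 24.9, 29.7, 45.4 and 51.2 CPM and 54.03, 78.6 and 70.8 CPM. Neither overlapped, with log2 fold changes of 0.80 (SE 0.23, edgeR unadjusted p = 0.0055) and 0.84 (SE 0.28, edgeR unadjusted p = 0.0122). Within G3 both were lower in G3 1 and G3 2 than in G3 3 and G3 4. Col6a3 (ENSMUSG00000048126), the longest of the chains, showed that unevenness far more strongly, at 3.46, 9.15, 20.5 and 22.4 CPM in G3 beside 20.6, 35.3 and 33.8 CPM in the libraries labelled G3 PGC1aOE. Its log2 fold change was 1.10 with a wide interval (−0.0852 to 2.30). Col6a6, a chain related to Col6a3, had a mean of 4.25 CPM and a log2 fold change of 0.58, while Col6a4, Col6a5 and Col28a1 had 2, 5 and 62 counts over all libraries and were not tested.

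Of the network-forming chains, Col8a2 was higher at an unadjusted p under 0.05 and Col8a1 depended on single libraries. Col8a2 (ENSMUSG00000056174), a type VIII chain known from the cornea and vessel walls, had 0.638, 0.886, 0.0896 and 0.526 CPM in G3 and 1.32, 1.75 and 3.31 CPM in the libraries labelled G3 PGC1aOE, from 7, 12, 1 and 7 counts and 17, 24 and 45 counts. The groups did not overlap, and the log2 fold change of 1.95 (SE 0.58, edgeR unadjusted p = 0.00642) rests on few counts, near the filter. Without G3 PGC1aOE 3 the edgeR unadjusted p of Col8a2 was 0.0527. Col8a1 (ENSMUSG00000068196), its more abundant partner, stood at 33.25, 8.12, 9.77 and 6.76 CPM and 30.8, 9.53 and 15.1 CPM. G3 1 and G3 PGC1aOE 1 were the high libraries of their groups, so the log2 fold change of 0.36 became 1.17 without G3 1 and −0.23 without G3 PGC1aOE 1. Col10a1, the related chain of growth plate cartilage, had 3 counts in all.

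The basement membrane zone collagens Col15a1 and Col18a1, whose ends can be released as fragments that act on vessels, were both uneven. Col15a1 (ENSMUSG00000028339) measured 4.28, 10.4, 37.02 and 46.6 CPM in G3 and 16.3, 52.6 and 63.6 CPM in the libraries labelled G3 PGC1aOE. It was low in G3 1, G3 2 and G3 PGC1aOE 1 and high in the other 4 libraries, and the log2 fold change of 0.85 had an interval from −0.998 to 2.69. With a covariate for the code number it was 0.11. Col18a1 (ENSMUSG00000001435) had 6.29, 9.75, 5.92 and 9.09 CPM and 5.97, 20.3 and 15.2 CPM. G3 PGC1aOE 1 lay among the G3 libraries and the other libraries labelled G3 PGC1aOE above them, with a log2 fold change of 0.83 (edgeR unadjusted p = 0.0481), 0.45 without G3 PGC1aOE 2 and 0.32 with a covariate for the code number. The anchoring fibril chain Col7a1 and the membrane-spanning chains Col13a1 and Col23a1 had means of 1.88, 1.68 and 3.804 CPM and log2 fold changes of 0.22, −0.0542 and 0.19, each with an interval that holds 0. Col23a1 had 0.61 without G3 1 and 0.0174 without G3 4. Col17a1, Col25a1 and Col26a1 had 9, 35 and 39 counts in all and were not tested.

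Several collagen genes were spread widely among the G3 libraries. The highest G3 library stood over the lowest by a median of 2.18-fold for the 30 tested collagen genes, beside 1.58-fold for 12648 genes with no 0 in G3. The ratio passed 4-fold for 23.3% of the collagen genes and 6.07% of all. Low counts widen this ratio, and collagen genes were not matched to the rest on level, but it reached 10.9-fold for Col15a1, 6.47-fold for Col6a3 and 4.92-fold for Col8a1, all above 10 CPM on average. These genes did not vary together. Col15a1, Col6a3 and Col6a2 were lower in G3 1 and G3 2 than in G3 3 and G3 4, while Col5a2, Col16a1 and Col12a1 were higher in G3 1 and G3 2. Col3a1, by contrast, was lowest in G3 2, and Col5a1 ranged over only 1.19-fold. Of the 30 genes, 15 had their highest CPM in G3 PGC1aOE 2, 7 in G3 PGC1aOE 3 and 4 in G3 PGC1aOE 1, and only 3 in G3 1 and 1 in G3 2. G3 PGC1aOE 2 also held the highest value for 26.2% of all genes tested and the lowest for 27.2%. The lowest CPM fell in G3 1 for 10 collagen genes, in G3 3 for 7 and in G3 4 for 7.

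**Figure D4:**
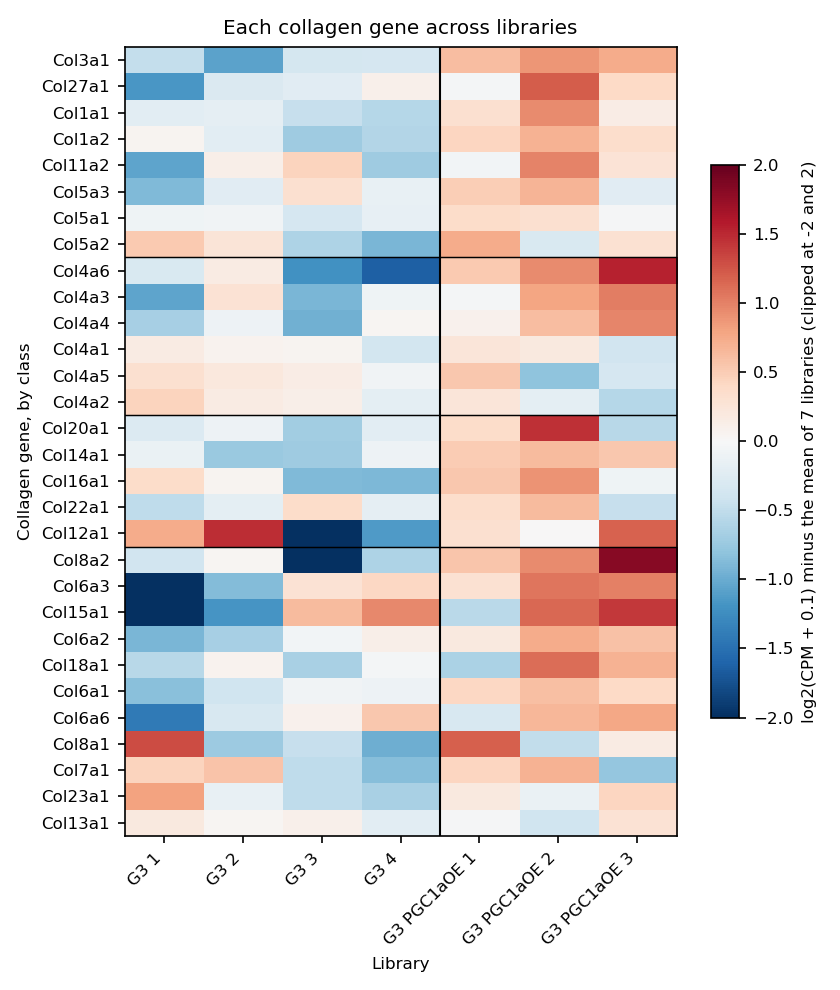
Heat map of log2(CPM + 0.1) minus the mean of the 7 libraries for the 30 tested collagen genes (rows, by class) in each library (columns, G3 left of the line and G3 PGC1aOE right), clipped at −2 and 2. Red is above the mean of the gene and blue below, and Col15a1 and Col6a3 are blue in G3 1 and G3 2 where Col5a2 and Col12a1 are red.

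Split by the number in the sample code, most differences kept their sign and some did not. Below 80, G3 PGC1aOE 1 was set against 3 G3 libraries, and from 80 on 2 libraries labelled G3 PGC1aOE were set against G3 4, so each subset has a group of a single library and no test. For the 10 genes whose groups did not overlap the sign in both subsets is fixed by that. Differences in log2 CPM, below 80 and from 80 on, were 1.25 and 1.15 for Col3a1, 0.61 and 1.12 for Col1a1, 1.03 and 0.68 for Col14a1 and 0.85 and 0.60 for Col6a1. Values larger within both subsets than over all were found for Col5a2, at 0.68 and 0.91 beside 0.43, for Col8a1, at 1.14 and 0.81 beside 0.50, for Col4a1, at 0.15 and 0.28 beside 0.0425, and for Col7a1, at 0.25 and 0.79 beside 0.20. Values smaller within both subsets than over all were found for more genes. Col15a1 had 0.45 and 0.31 beside 1.17 over all, Col6a2 0.74 and 0.54 beside 0.89 and Col4a4 0.65 and 0.75 beside 0.97. The same held for Col3a1 (1.31 over all), Col6a3, Col27a1, Col4a3, Col6a6 and Col20a1. Signs differed between the subsets for Col18a1 at −0.25 and 0.94, Col4a5 at 0.32 and −0.49 and Col13a1 at −0.13 and 0.15. Col4a2 had −0.000421 and −0.18, Col6a3 1.23 and 0.62, Col16a1 0.69 and 1.29, Col27a1 0.52 and 0.70, Col5a3 0.75 and 0.36 and Col4a3 0.49 and 0.96. Nothing in the labels says what the number stands for.

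Ratios between partner chains do not depend on how libraries are scaled. Type I collagen is mostly 2 chains of Col1a1 with 1 of Col1a2, but the messages stood near equality per length: the FPKM ratio of Col1a1 to Col1a2 was 0.8097, 0.994, 1.15 and 0.980 in G3 libraries 1 to 4 and 0.902, 1.16 and 0.846 in G3 PGC1aOE libraries 1 to 3. The groups overlapped, at 0.982 ± 0.137 (SD, n = 4) and 0.969 ± 0.166 (SD, n = 3). On the longest coding transcript the ratio was 0.689 ± 0.0963 (SD, n = 4) in G3 and 0.680 ± 0.117 (SD, n = 3) in the libraries labelled G3 PGC1aOE, so the position relative to 1 depends on the gene length used. The ratio of Col3a1 to Col1a1 ran from 0.736 to 1.61 in G3 and from 1.29 to 2.06 in the libraries labelled G3 PGC1aOE, and overlapped too.

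Of the 8 pairs described, only Col4a1 to Col4a2, the pair with the shared start shown above, did not overlap between the groups. The FPKM ratio was 0.613, 0.6996, 0.7199 and 0.665 in G3 and 0.751, 0.987 and 0.852 in the libraries labelled G3 PGC1aOE. The means were 0.674 ± 0.0466 (SD, n = 4) and 0.863 ± 0.118 (SD, n = 3), and on the longest coding transcript 0.884 ± 0.06104 (SD, n = 4) and 1.13 ± 0.155 (SD, n = 3). The lowest library labelled G3 PGC1aOE exceeded the highest G3 library by a small margin. The pairs were chosen with earlier results known and the ratios carry no test. How often ratios of other gene pairs fail to overlap was not computed, and a link to the shared start was not tested. Col6a1 to Col6a2, the other pair of gene neighbours, had 2.09 ± 0.289 (SD, n = 4) and 1.999 ± 0.313 (SD, n = 3) and overlapped. Col6a3 to Col6a1 ranged from 0.0615 in G3 1 to 0.239 in G3 4, and Col15a1 to Col18a1 from 1.32 in G3 1 to 12.1 in G3 3. Col5a1 to Col5a2 ran from 0.5901 to 1.53 in G3, a wider range than the gap between the group means. Col8a1 to Col8a2 overlapped as well, with Col8a2 at a single count in G3 3.

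**Figure D5:**
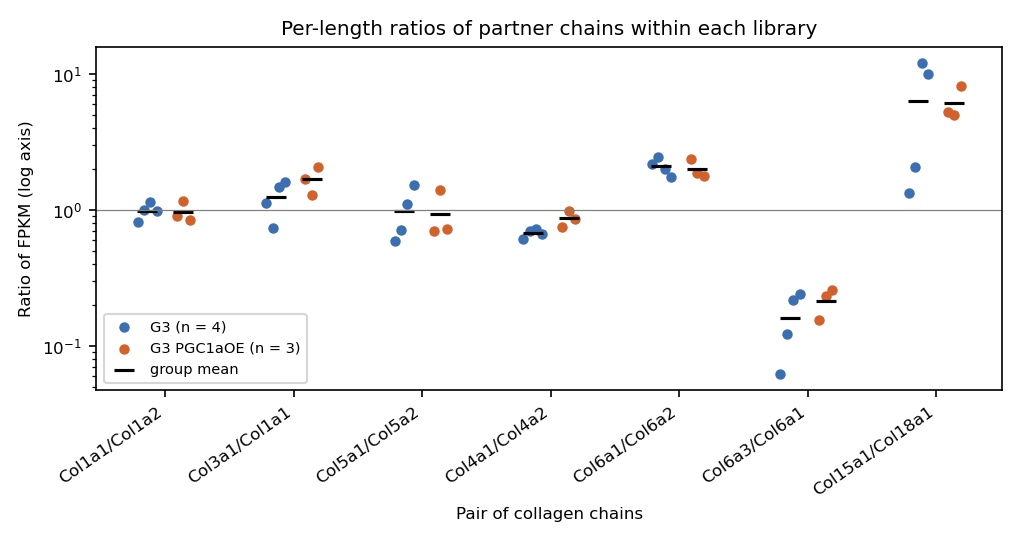
Ratio of the deposited FPKM of partner collagen chains within each library, on a log axis, for 7 pairs, with 1 point per library (4 G3, 3 G3 PGC1aOE), black bars for group means and a grey line at 1. Col4a1/Col4a2 lies between 0.613 and 0.720 in G3 and between 0.751 and 0.987 in the libraries labelled G3 PGC1aOE.

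Genes that make, process and bind collagen had a smaller median log2 fold change than the collagen genes (0.77), a difference that was not tested. Of 43 such genes 39 were tested, and 27 of these had a log2 fold change above 0, beside 50.9% of all genes. At an unadjusted p under 0.05, 4 of the 39 were higher beside 3.05% of all genes tested and 0 lower beside 1.27%, and 0 passed after adjustment. In 3 of the 39 every library labelled G3 PGC1aOE stood above every G3 library, beside 2.19% of all genes tested. In 0 they stood below, beside 2.4%. Their median log2 fold change was 0.17. The 20 genes of chain modification and folding, which hydroxylate prolines and lysines and guide the helix, had a median of 0.13. Of the 19 tested, 1 was higher at an unadjusted p under 0.05. This was P3h3, a prolyl 3-hydroxylase family gene, at 11.3 ± 2.81 CPM (SD, n = 4) and 18.6 ± 7.902 CPM (SD, n = 3) (log2 fold change 0.71, SE 0.31, 0.35 without G3 PGC1aOE 2). Ppib and Colgalt2 came next by p in that list, at 0.40 and 0.57 (0.23 for Ppib without G3 PGC1aOE 3).

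Propeptide processing trims the ends of fibrillar chains so that fibrils can form. Of its 6 tested genes 2 were higher at an unadjusted p under 0.05, beside 3.05% of all genes tested. The log2 fold change was above 0 in 4 of the 6, beside 50.9% of all genes, with a median of 0.40. Pcolce (ENSMUSG00000029718), which enhances that cleavage, measured 54.8, 40.02, 35.9 and 37.5 CPM in G3 and 64.04, 108 and 66.3 CPM in the libraries labelled G3 PGC1aOE and did not overlap. Its log2 fold change was 0.92 (SE 0.26, edgeR unadjusted p = 0.00457, adjusted p = 0.847). Bmp1, the protease itself, had 23.96, 36.3, 26.4 and 31.1 CPM and 35.7, 71.8 and 35.2 CPM, where G3 PGC1aOE 2 was the highest (log2 fold change 0.69, and 0.27 without it). The relative Pcolce2 had 0.48 (0.22 without G3 PGC1aOE 3 and 0.31 without G3 3). None of the 5 cross-linking oxidase genes had an unadjusted p under 0.05: Loxl1, Loxl2 and Loxl3 had log2 fold changes of 0.36, 0.17 and 0.38, and Lox and Loxl4 had −0.29 and −0.22. Among 9 tested receptors, Mrc2 (the uptake receptor for collagen) was higher at 17.1 ± 2.39 CPM (SD, n = 4) and 24.9 ± 4.56 CPM (SD, n = 3), with no overlap (log2 fold change 0.54, SE 0.21, edgeR unadjusted p = 0.0277). The receptor gene Lair1, with a mean of 1.81 CPM, did not overlap either (log2 fold change 0.56, edgeR unadjusted p = 0.129). The collagen-binding integrin chains Itga11 and Itga10 had 0.71 and 0.96 (0.54 for Itga10 without G3 PGC1aOE 2). The more abundant chains Itga1 and Itgb1 had −0.19 and −0.19, and the collagen-sensing receptors Ddr1 and Ddr2 had −0.15 and 0.20.

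Some markers of fibroblasts, the main source of collagen in the heart, were higher at an unadjusted p under 0.05 along with these genes, and their part in the differences was not tested. Over all genes tested, the shares to read the marker counts against are 50.9% above 0, 3.05% higher at that p and 1.27% lower, and 0 markers passed after adjustment. Of 11 tested fibroblast markers that are not collagens, 9 had a log2 fold change above 0 and 3 had an unadjusted p under 0.05, with a median of 0.67. The 3 were Pi16, Lum and Dpt, with log2 fold changes of 0.97, 1.23 and 1.02, while the receptor gene Pdgfra, which marks resting fibroblasts, had −0.0518 and Scara5 had −0.25. The summed level of the 12 genes on the list ran from 1359.7 to 2282 CPM in G3 and from 1743 to 3146 CPM in the libraries labelled G3 PGC1aOE, and overlapped between the groups. It was mostly Gsn and Dcn. Relative to that sum Col3a1 stood at 0.0397, 0.0182, 0.0442 and 0.05099 in G3 and at 0.07699, 0.0577 and 0.0467 in the libraries labelled G3 PGC1aOE, so the groups, which did not overlap in CPM, overlapped on this scale, with means of 0.0383 ± 0.0141 (SD, n = 4) and 0.0605 ± 0.0153 (SD, n = 3). Col1a1, Col14a1 and Col6a1 overlapped on it as well. Activated fibroblast markers had log2 fold changes above 0 in 8 of 8 with a median of 0.71, 1 of them higher at an unadjusted p under 0.05 (Meox1, 0.92), and summed to between 103 and 327 CPM in G3 and between 322 and 421 CPM in the libraries labelled G3 PGC1aOE. Their defining gene Postn had 173, 60.5, 11.8 and 11.5 CPM in G3 and 162, 46.7 and 56.9 CPM in those libraries, and Cthrc1 was too low to be tested, with 0 in G3 3. The libraries with most Postn in each group, G3 1 and G3 PGC1aOE 1, were also those with most Col8a1 and Col5a2, a match that was seen in the values and not tested.

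Other cell types also make collagen, chiefly type IV and type VI. Endothelial markers summed to between 712 and 943 CPM in G3 and between 716 and 1489 CPM in the libraries labelled G3 PGC1aOE (median log2 fold change 0.48, 1 of 10 higher at an unadjusted p under 0.05, Emcn at 0.65). Pericyte and smooth muscle markers had a median of 0.40 and 0 of 9 genes higher at that p, with sums from 543 to 915 and from 694 to 871 CPM. Adipocyte markers summed to between 1.502 and 35.6 CPM and between 8.99 and 56.9 CPM, with Lep at 0 in 5 of the 7 libraries. Their log2 fold change was above 0 in 6 of 6 tested genes with a median of 1.81. At an unadjusted p under 0.05, 2 of the 6 were higher (Car3 at 2.87 and Plin1 at 2.09). The list for cartilage, valve and tendon ran from 9.69 to 38.4 CPM and from 20.1 to 70.9 CPM. Of its defining cartilage genes Matn3 was at 0 in every library and Acan under 1 CPM in every library, while Fmod, a small proteoglycan gene of fibrous tissue, had a log2 fold change of 2.78, the only gene of the 5 tested at an unadjusted p under 0.05. Of these, 3 were above 0, and Scx and Sox9 had −0.67 and −0.11. Epicardial markers ran from 6.72 to 15.02 and from 6.12 to 26.8 CPM. Their log2 fold change was above 0 in 3 of 3 tested genes with a median of 0.99, and 0 of 3 were higher at an unadjusted p under 0.05. Macrophage markers ran from 165 to 399 and from 296 to 358 CPM, with 1 of 8 higher at that p (Fcgr1 at 0.83). Cardiomyocyte markers had 2 of 10 lower at that p (Ryr2 at −0.95 and Atp2a2 at −0.84) and 0 higher.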

How the data were processed

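RNA from left ventricle was made into 7 libraries with a TruSeq kit, per the labels' protocols. The authors deposited counts per gene and FPKM. Bowtie 0.12.2, CASAVA and the mouse build mm9 stand in the submitters' processing notes, and the counting program and annotation were not given in the sources used here. Of 22027 gene IDs, 21748 matched a symbol, and the other 279 held under 0.03% of the counts in each library. The deposited counts were tested with edgeR 4.0.16 in R 4.3.3 (TMM scaling, filterByExpr, quasi-likelihood test with robust fitting, Benjamini-Hochberg adjustment), which kept 12674 genes and left out 9353. CPM are counts divided by TMM-scaled totals. DESeq2 1.42.0 and limma 3.58.1 served as alternatives, together with other scalings and filters, covariates for the sample code, limma on log2(FPKM + 1) and log2(FPKM + 0.1), and leaving out each library. Removal of trends on GC content and transcript length, and the longest coding transcript of GENCODE vM21 as length, were added after seeing the data.

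Members and lists were chosen with earlier results of these data known, as was the split of the code number at 80. All collagen genes are accounted for. Those with a mean of 1 CPM or more are named with values, those with a mean of 10 CPM or more, an unadjusted p under 0.05 or groups without overlap are given in every library, and of each list of collagen synthesis and binding genes those past that p or else up to 3 of smallest p are named. Other genes of these lists and the cell type markers were named after their values were seen. Totals of 10106705 to 16056740 counts limit what can be seen of genes under 1 CPM. The labels do not say that each library is a separate animal, so p-values measure only how these samples vary, which may be technical. Reads shared by related chains could be split by the counting. RefSeq sequences carry build GRCm38.p6 and no coordinates were taken over to mm9.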

Additional observations from a re-analysis of the deposited data

Results flagged for a closer look

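Col8a1 measured 33.25 CPM in G3 1, beside 8.12, 9.77 and 6.76 CPM in G3 2, G3 3 and G3 4. The gap to the next G3 library, as a part of the range of the group, passed the 95% limit of the Dixon test for 4 samples (0.829). Of 43 genes so checked in G3 (the 30 tested collagen genes, 12 named genes of collagen synthesis and binding, and Ppargc1a), it alone passed. Collagen genes too low for the group test were not checked, and chance alone marks about 1 in 20 groups.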

How the results depend on the processing

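DESeq2 and the replicate block aside, the alternatives called 0 genes, and 24 of the 30 tested collagen genes kept their sign under all 20 alternatives. DESeq2 called 3 genes and 1 collagen gene, Col3a1, whose adjusted p ran from 0.00293 to 1 over the alternatives. Genes at an unadjusted p under 0.05 numbered 548, against 1116 with limma voom and 307 with a covariate for the code number, and 231 to 2464 as each library was left out.

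The median log2 fold change of the collagen genes (0.77) was 0.34 with limma on log2(FPKM + 1), 0.58 on log2(FPKM + 0.1), 0.63 with the code text as a covariate and 0.62 with the GC trend removed. The limma fit on log2(FPKM + 1) gave 0.41 for fibrillar, 0.12 for basement membrane and 0.43 for other genes, a scale that shrinks low genes, and on log2(FPKM + 0.1), where the median of all genes stood at −0.105, other genes had 0.56. Other genes had 0.57 with the code text and 0.56 with a covariate for the code number. Fibrillar genes had 0.59 with the GC trend removed, and basement membrane genes 0.74 with the length trend removed. The cause of these shifts was not tested.

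Leaving out each library in turn left 9 to 12 collagen genes higher, 8 to 12 of them among the 12 of the full set, and 0 to 1 lower at an unadjusted p under 0.05 (Col4a5, without G3 PGC1aOE 1), and 0 to 0 called. The median ran from 0.53 to 0.86 over all collagen genes, the lowest without G3 PGC1aOE 2. By class it ran from 0.56 to 0.87 for fibrillar, 0.43 to 0.58 for basement membrane, 0.48 to 1.00 for fibril-associated and 0.59 to 0.90 for other genes.

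Signs turned for 6 collagen genes. Col4a1 had −0.12 with limma voom, −0.0718 and −0.0738 on log2(FPKM + 1) and log2(FPKM + 0.1) and −0.0531 with the GC trend removed. Leaving out 1 library, Col4a1 ran from −0.0598 (G3 PGC1aOE 1) to 0.23 (G3 PGC1aOE 3), with −0.0457 for G3 4 and −0.0257 for G3 PGC1aOE 2. Col7a1 had −0.21 with limma voom and ran from −0.0991 (G3 PGC1aOE 2) to 0.55 (G3 PGC1aOE 3), with −0.00225 for G3 4. Col13a1 had 0.11 with limma voom and 0.0205 with a covariate for the code number, and ran from −0.25 (G3 PGC1aOE 3) to 0.11 (G3 PGC1aOE 2), with 0.0047 for G3 1. Col12a1 ran from −0.18 (G3 PGC1aOE 3) to 1.03 (G3 2), with −0.13 for G3 3 and −0.0383 for G3 4. Col4a5 ran from −0.71 (G3 PGC1aOE 1) to 0.0168 (G3 PGC1aOE 2), and Col8a1 from −0.23 (G3 PGC1aOE 1) to 1.17 (G3 1). Loxl2, a cross-linking gene, had −0.0387 with G3 PGC1aOE 3 left out.

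Replicate numbers did not pair the libraries: deviations of same-numbered libraries correlated at 0.456, 0.123 and −0.0863, and not every library correlated best with its own number. With the replicate block 1160 genes had an unadjusted p under 0.05, 6 genes were called, 0 of them collagen genes, 16 collagen genes were higher at an unadjusted p under 0.05, Col4a1 had −0.0731 and Col7a1 −0.0377.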
